A study of Mus musculus with 31 samples.

Results

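The regions described here are places in the genome of mouse lung adenocarcinomas where Foxa1/2 was bound in Nkx2-1-positive and in Nkx2-1-deleted tumors. The active mark H3K27ac was called there in neither tumor type. A member is a Foxa1/2 peak of Nkx2-1-positive tumors on chromosomes 1 to 19 that overlaps a Foxa1/2 peak of Nkx2-1-deleted tumors by at least 1 bp and overlaps no H3K27ac island of either tumor type. There were 457 members among 22611 autosomal positive-tumor peaks, or 2.02%. Members were chosen by the Foxa1/2 and H3K27ac lists, so constant binding and the lack of H3K27ac are how the members were chosen and are no result. H3K4me1, H3K4me3, H3K27me3 and Nkx2-1 were not used by the rule.

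Forkhead proteins Foxa1 and Foxa2 act in the epithelium of lung, liver and gut. They are known as pioneer factors, since they can bind their motif in closed chromatin and are often found there before a regulatory element becomes active. Nkx2-1 is a homeodomain factor that maintains lung identity and often binds near Foxa1/2. H3K4me1 is the usual mark of enhancers, active or not, and H3K27ac is added when an element is active. H3K4me3 marks promoters, and H3K27me3 is laid down by Polycomb repressive complex 2 over silenced regions. H3K4me1 or H3K4me3 together with H3K27me3 is often called a poised or bivalent state.

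Binding and marks were measured by chromatin immunoprecipitation and sequencing in tumors of mice of mixed 129/B6 strain, 4 to 7 months old. Per the labels, mice received adenovirus or lentivirus into the trachea, and tamoxifen was given at a low or a high dose. The labels do not say which sample had which, and other alleles and the driver of recombination are not given there. The positive groups were Nkx2-1 (2 libraries from males), Foxa1/2 (2 libraries from males) and each of the 4 histone marks (1 male and 1 female). The deleted groups were Foxa1/2 (2 libraries from females) and each of the 4 marks (1 male and 1 female), so sex and tumor type cannot be told apart for Foxa1/2. A single antibody recognized Foxa1 and Foxa2, which are therefore not separated. The tumors were bulk tissue, so a mark in fewer cells and a weaker mark per cell cannot be told apart.

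Of 31 samples, 9 were inputs and 22 had files in 11 groups. The 2 files of all 11 groups were identical and their names mark merged libraries, so each group gave 1 list and no spread between replicates. No difference below was therefore tested, and no p-value is given. Brackets after a share hold its 95% Wilson interval, which covers counting error over peaks only. Reads inside islands ranged from 18536619 to 45706261 per list, and library totals are not given in the sources used here. Constant here means a Foxa1/2 peak in both tumor types, and lost means a peak in positive tumors only.

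Constant binding without H3K27ac was uncommon. Of the 22611 peaks, 9518 (42.1%) were constant and 1923 (8.5%) had no H3K27ac in either tumor type, both being part of the rule. The members made up 4.80% (4.39 to 5.25) of constant peaks, against 90.0% with H3K27ac in both tumor types. They were spread over all 19 autosomes, where they made up 3.33% to 7.21% of the constant peaks. Of the members, 4 lay within 10 kb of another member and 35 within 100 kb. The nearest other positive-tumor Foxa1/2 peak lay under 10 kb from 75 members (16.4%), against 52.3% of all 22611 peaks, 56.5% of constant peaks with H3K27ac in both tumor types and 18.8% of lost peaks without H3K27ac. The median gap was 36915 bp for members and 8999 bp over all peaks.

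H3K4me1 was the most frequent mark. An H3K4me1 island overlapped 284 members in positive tumors, 62.1% (57.6 to 66.5), against 97.4% of all autosomal positive-tumor Foxa1/2 peaks. In deleted tumors it overlapped 269 members, 58.9% (54.3 to 63.3), against 92.3% of all peaks. Of the 8568 constant peaks with H3K27ac in both tumor types, called acetylated constant peaks below, 99.8% had H3K4me1 in positive tumors. A large minority of the members therefore lacked the enhancer mark in each tumor type, while nearly every acetylated constant peak carried it. The member share was below the acetylated share on 19 of 19 chromosomes in both tumor types. Per chromosome it was 50.0 to 73.7% in positive and 36.8 to 72.0% in deleted tumors. All chromosomes come from the same lists and are not replicates, here and below. The acetylated peaks were chosen for H3K27ac, so counts of chromosomes against them are description only.

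H3K4me3 was sparse and H3K27me3 was more frequent than at Foxa1/2 peaks in general. H3K4me3 overlapped 34 members in positive tumors, 7.44% (5.37 to 10.2) against 60.8% of all peaks, and 18 in deleted tumors, 3.94% (2.51 to 6.14) against 36.6%. H3K27me3 overlapped 72 members in positive tumors, 15.8% (12.7 to 19.4) against 2.1% of all peaks, and 89 in deleted tumors, 19.5% (16.1 to 23.4) against 3.22%. At acetylated constant peaks H3K27me3 was found at 0.899% in positive and 1.46% in deleted tumors. H3K4me3 was at 73.0% of acetylated constant peaks in positive and 54.7% in deleted tumors. Against these acetylated constant peaks, members were lower for H3K4me3 on 19 of 19 chromosomes in both tumor types. For H3K27me3 they were higher on 19 of 19 in both. H3K27ac and H3K27me3 modify the same residue of histone H3, so the rule was not fully independent of H3K27me3.

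Lost Foxa1/2 peaks without H3K27ac, 1466 in number, are the nearest comparison, since they lack the same mark. Their H3K4me3 and H3K27me3 shares were close to those of the members, with H3K27me3 at 13.5% (11.9 to 15.4) in positive and 17.3% (15.5 to 19.3) in deleted tumors. Their H3K4me1 shares were not: 80.2% (78.1 to 82.2) in positive and 43.6% (41.1 to 46.1) in deleted tumors. Members thus lay below lost peaks in the positive list and above them in the deleted list.

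**Figure D1:**
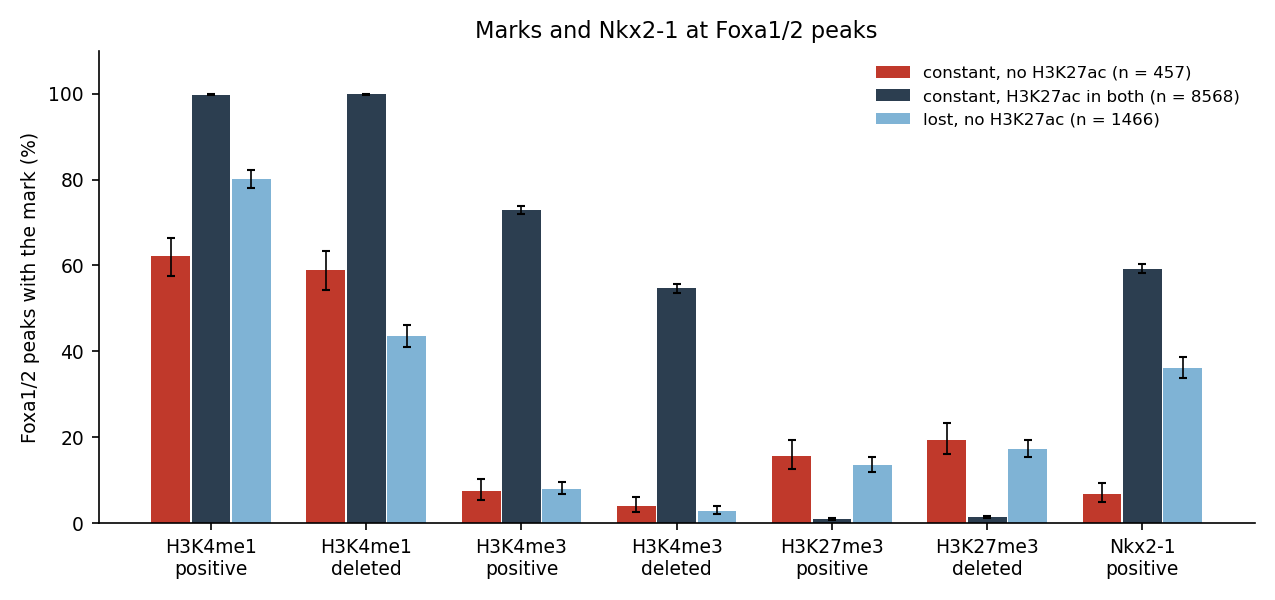
Share of Foxa1/2 peaks (percent, vertical axis) that overlap an island of each mark in positive or deleted tumors or an Nkx2-1 peak, for members, acetylated constant peaks and lost peaks without H3K27ac; lines are 95% Wilson intervals. Members have H3K4me1 at 62.1% and 58.9% and Nkx2-1 at 6.78%, against 59.3% for Nkx2-1 at acetylated constant peaks.

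Nkx2-1 was rare at the members. Only 31 members, 6.78% (4.82 to 9.47), overlapped an Nkx2-1 peak, against 61.6% of all positive-tumor Foxa1/2 peaks. The share was 59.3% (58.2 to 60.3) at acetylated constant peaks and 36.2% (33.7 to 38.6) at lost peaks without H3K27ac. Members were below acetylated constant peaks on 19 of 19 chromosomes, with 0 to 15.8% per chromosome. For the 426 members without Nkx2-1, the nearest Nkx2-1 peak was a median of 30027.5 bp away.

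The authors' peak score, at least 60 in each list, is higher where the evidence for a peak is stronger, and 351 positive-tumor peaks stand at 3100 or above. Member scores ran from 61 to 3100 in the positive list, with a median of 151 and quartiles of 96 and 312. The median was 333 at acetylated constant peaks, 110.5 at lost peaks without H3K27ac and 184 over all peaks. Members were thus mostly of low or middle score, yet 20 scored 1000 or more. They were also narrower, with a median of 896 bp against 1070 bp for acetylated constant peaks. Among constant peaks, the members made up 10.2% (8.69 to 11.99) of the lowest of 4 score groups and 2.02% (1.62 to 2.52) of the highest.

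The Nkx2-1 share of members was below that of both other sets within each score group. The groups hold equal parts of all 22611 peaks, with scores of 60 to 100, 101 to 184, 185 to 443 and 444 to 3233. In the lowest group 1 of 133 members had Nkx2-1, 0.752% (0.133 to 4.14), against 26.3% of acetylated constant and 19.8% of lost peaks without H3K27ac. In the second group the values were 2 of 133 members, 1.50% (0.413 to 5.32), against 37.8% and 35.1%. In the third they were 8 of 115, 6.96% (3.57 to 13.1), against 54.2% and 57.4%. In the highest they were 20 of 76, 26.3% (17.7 to 37.2), against 82.3% and 78.0%. At like score, lost peaks without H3K27ac were near acetylated constant peaks in Nkx2-1, and members were below both.

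H3K4me1 went with the score in positive tumors. It was found at 51.1% (42.7 to 59.5) of members in the lowest score group and 80.3% (70.0 to 87.7) in the highest. Lost peaks without H3K27ac had 72.4% and 94.7% in these groups, so this was not seen at members alone. In deleted tumors the lowest 3 groups had 57.9%, 54.9% and 53.9%, and the highest had 75.0% (64.2 to 83.4). Lost peaks without H3K27ac had 36.6%, 40.9%, 56.7% and 60.6% there, so the third group was the exception in which members were not above them. Acetylated constant peaks had at least 99.3% in each group in both tumor types. H3K27me3 in deleted tumors covered 15.0% (9.95 to 22.1) of members in the lowest group and 27.6% (18.8 to 38.6) in the highest, and these intervals overlap. At lost peaks without H3K27ac these shares were 14.7% and 25.8%.

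**Figure D2:**
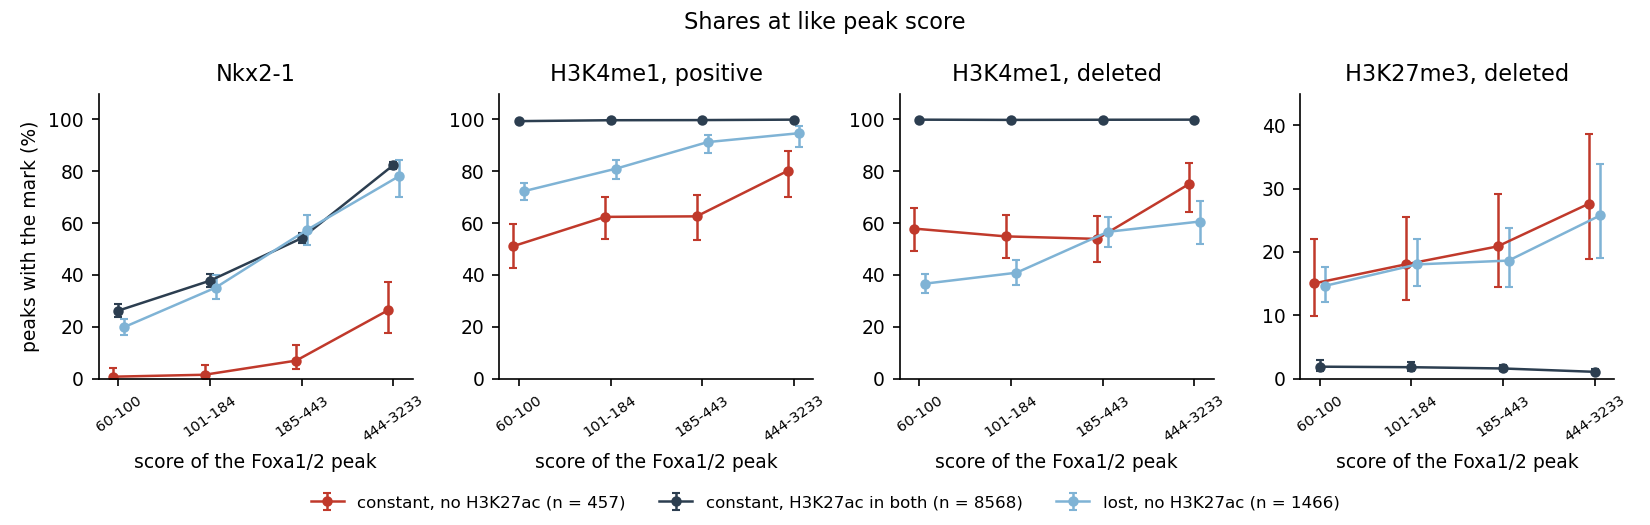
Share of peaks (percent) with Nkx2-1, H3K4me1 in positive tumors, H3K4me1 in deleted tumors and H3K27me3 in deleted tumors, by 4 groups of the positive-tumor Foxa1/2 score; lines are 95% Wilson intervals, and the last panel has its own scale. Nkx2-1 runs from 0.752% to 26.3% at members and from 26.3% to 82.3% at acetylated constant peaks.

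Overlap of the Foxa1/2 peaks was part of the rule, and the following describes the pairs. Each of the 457 members overlapped exactly 1 peak of the deleted list, and the 457 partners were distinct. The summits lay a median of 22 bp apart, 362 members (79.2%) had summits within 50 bp, and the widest shift was 887 bp. For acetylated constant peaks the median was also 22 bp, and 75.9% had summits within 50 bp. The partner peaks scored 60 to 1779 in the deleted list, with a median of 128 against 212 for partners of acetylated constant peaks. Across the 457 members, Spearman's rho between the scores of both lists was 0.29, and across acetylated constant peaks 0.47. This is a description across peaks, which share the libraries of each list and are not replicates.

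The 31 members with Nkx2-1 scored high in the positive list but not in the deleted list. In positive tumors their Foxa1/2 score was 83 to 3100 with a median of 716, against 61 to 2409 and 144.5 for the 426 other members. In deleted tumors the partner scores had a median of 120 with Nkx2-1 and 129 without. Acetylated constant peaks had positive-list medians of 556 with and 180 without Nkx2-1, and partner medians of 217 and 207. Lost peaks without H3K27ac had positive-list medians of 169.5 and 93. A higher positive-list score with Nkx2-1 was thus not seen at members alone. Within the highest score group of positive tumors, the 20 members with Nkx2-1 had a median partner score of 123.5 (quartiles 72 and 296.5), and the 56 without had 308 (176 and 590.25). Their own medians in the positive list were 1074.5 and 700. Partner scores of both sets overlap, from 65 to 1378 and from 67 to 1779. The scale of scores differs between lists, so the positive and deleted scores of a peak are not compared with each other.

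**Figure D3:**
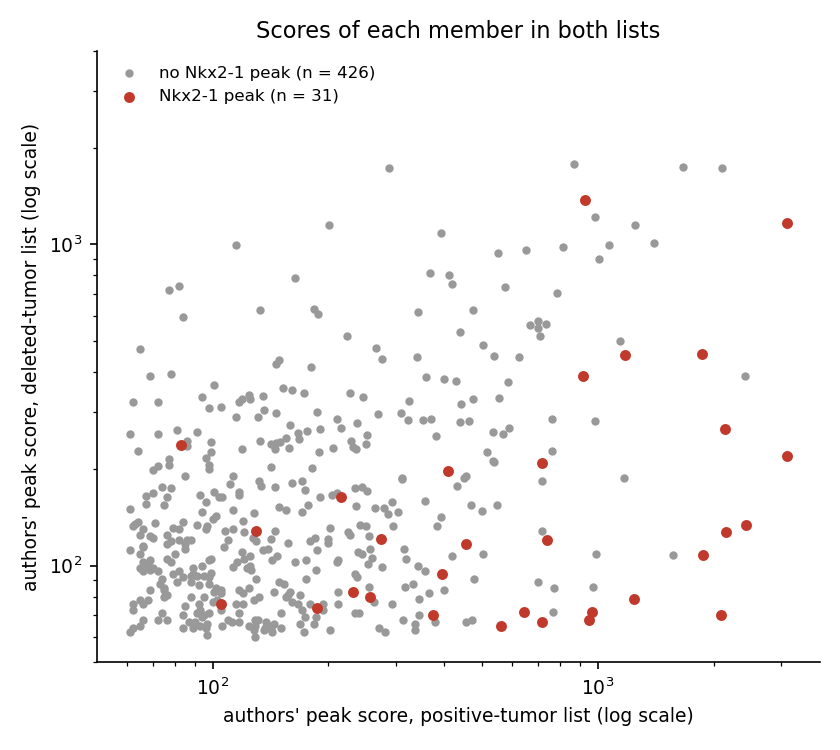
Authors' peak score of each of the 457 members in the positive-tumor list (horizontal) and of its partner in the deleted-tumor list (vertical), both on log axes, with members that overlap Nkx2-1 in red. The 31 red points have a median of 716 on the horizontal and 120 on the vertical axis; the scales of the lists differ.

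The Nkx2-1 peaks at members were of moderate score themselves. They ran from 61 to 1557 with a median of 140, against 232 at acetylated constant peaks and 164 at lost peaks without H3K27ac. Their summits lay a median of 50 bp from the Foxa1/2 summit, and 23 of 31 (74.2%) were within 100 bp. At lost peaks without H3K27ac the median was 46 bp, with 78.5% within 100 bp. At acetylated constant peaks it was 82 bp, with 56.7%. Close summits were thus not seen at members alone. H3K4me1 overlapped 29 of these 31 members in positive tumors, 93.5% (79.3 to 98.2), against 59.9% (55.1 to 64.4) of members without Nkx2-1. In deleted tumors, for which there was no Nkx2-1 list, it overlapped 28 of 31, 90.3% (75.1 to 96.7), against 56.6% (51.8 to 61.2). These comparisons are not at like score, since 20 of the 31 were in the highest score group. H3K4me1 was at 80.3% of members in that group in positive and 75.0% in deleted tumors, against 51.1% and 57.9% in the lowest. H3K27me3 in positive tumors was at 16.1% (7.09 to 32.6) of members with and 15.7% (12.6 to 19.5) of members without Nkx2-1.

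H3K4me1 islands at the members were small and centred on the bound site. Their median width was 1800 bp in both tumor types, below the list medians of 2400 bp in positive and 2800 bp in deleted tumors. At acetylated constant peaks the island over a peak had a median width of 7800 and 8600 bp. Of members with H3K4me1, 60.6% in positive and 58.0% in deleted tumors lay under an island of at most 2000 bp, against 7.06% and 4.57% of acetylated constant peaks. The Foxa1/2 summit lay a median of 266 and 306 bp from the centre of the island. A shorter island keeps any covered point nearer to its centre. The island covered the summit at 279 of 284 and 265 of 269 marked members. Read density of these islands was ordinary for their lists, with median percentiles of 51.0 in positive and 45.6 in deleted tumors, against 79.5 and 78.0 for islands over acetylated constant peaks.

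The same shape shows in the plot of marks around the summit. In positive tumors H3K4me1 islands lay over 61.1% of member summits, 23.9% of positions 1 kb away and 16.3% of positions 2 kb away. In deleted tumors the values were 58.0%, 24.3% and 14.8%. Beyond 2 kb the share was flat, at 17.0% and 15.8% at 5 kb. H3K4me1 at lost peaks without H3K27ac was just as narrow, from 79.4% at the summit to 14.6% at 2 kb in positive tumors, while acetylated constant peaks still had 68.2% at 2 kb. H3K27ac itself, absent at the peak by the rule, stayed low. At 10 kb it lay over 10.5% of positions in positive and 7.55% in deleted tumors. The values were 47.1% and 42.0% around acetylated constant peaks, which were chosen for H3K27ac. Around lost peaks without H3K27ac they were 10.9% and 7.13%, so the low share was not seen at members alone.

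H3K27me3 had the reverse shape, with a dip at the bound site. Its islands lay over 10.7% of member summits in positive tumors, 15.2% of positions at 1 kb and 20.4% at 5 kb. In deleted tumors the values were 14.7%, 18.7% and 23.2%. The mark was therefore less frequent at the summit than a few kb to either side in both tumor types. In positive tumors 54 members had H3K27me3 both 2 kb before and 2 kb after the summit, and at 38 of them, 70.4% (57.2 to 80.9), the summit was covered too. At places 6 kb to each side, treated in the same way, the middle was covered in 130 of 139 cases, 93.5% (88.2 to 96.6). In deleted tumors the counts were 47 of 70, 67.1% (55.5 to 77.001), and 157 of 167, 94.0% (89.3 to 96.7). H3K4me1 was present at 9 of the 16 sites with an uncovered summit and 24 of the 38 with a covered one in positive tumors, and at 13 of 23 and 30 of 47 in deleted tumors, so these counts do not set the uncovered sites apart. Lost peaks without H3K27ac had the same dip, with 100 of 176 summits covered in positive tumors, so it was not seen at members alone.

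**Figure D4:**
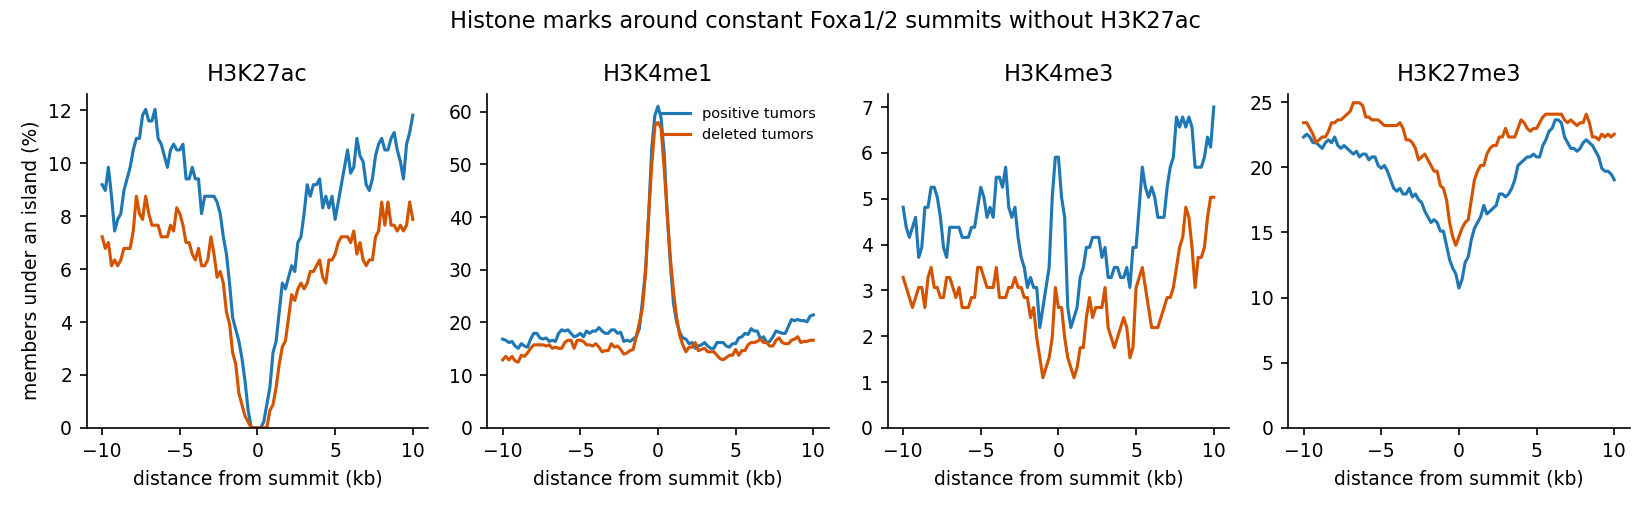
Share of the 457 members (percent, each panel with its own scale from 0) that lie under an island of H3K27ac, H3K4me1, H3K4me3 or H3K27me3 at each distance from the Foxa1/2 summit, in steps of 200 bp to 10 kb, in positive and deleted tumors. H3K27ac is 0 at the summit by the rule, H3K4me1 peaks there at 61.1% and 58.0%, and H3K27me3 dips to 10.7% and 14.7%.

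H3K27me3 islands that reached members were long and dense. Their median width was 15600 bp in positive and 18800 bp in deleted tumors, against list medians of 6000 and 5400 bp, and the widest were 94000 and 126600 bp. Longer islands meet more peaks by their length alone. Their median read density stood at percentile 83.2 of the positive and 87.0 of the deleted list. At lost peaks without H3K27ac the median widths were 13400 and 15200 bp and the median density percentiles 78.0 and 82.6. Long and dense islands were thus not seen at members alone. Members with H3K27me3 in both tumor types lay farther from acetylated chromatin, a median of 17166 bp from the nearest H3K27ac island of either type, against 9875 bp over all members and 9577 bp for those with H3K4me1 in both.

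Each member was next placed in a state for each tumor type. In positive tumors 224 members (49.0%) had H3K4me1 alone, 139 (30.4%) had none of the marks, 32 (7.00%) had H3K27me3 alone and 28 (6.13%) had H3K4me1 with H3K27me3. The other 34 had H3K4me3, 22 without and 12 with H3K27me3. In deleted tumors 206 (45.1%) had H3K4me1 alone, 155 (33.9%) no mark, 33 H3K27me3 alone and 45 (9.85%) H3K4me1 with H3K27me3. H3K4me3 was left at 18, 7 without and 11 with H3K27me3. H3K4me1 alone was thus the largest state and no mark the second. H3K4me1 alone was at 26.7% of acetylated constant peaks in positive and 44.9% in deleted tumors, and at 64.5% and 32.7% of lost peaks without H3K27ac. The member share was therefore not the highest of the 3 sets in positive tumors, and in deleted tumors it was near that of acetylated constant peaks. No mark was at 0.175% and 0.0934% of acetylated constant peaks and at 16.4% and 48.4% of lost peaks without H3K27ac. H3K4me1 with H3K27me3 was at 7.78% and 7.91% of lost peaks without H3K27ac, and at 0.163% and 0.28% of acetylated constant peaks. H3K27me3 alone was at 3.27% and 8.05% of these lost peaks, and at 0% and 0.0117% of acetylated constant peaks. H3K4me3 without H3K27me3 was at 5.53% and 1.57% of these lost peaks, and H3K4me3 with H3K27me3 at 2.46% and 1.36%. At acetylated constant peaks these were at 72.3% and 53.5%, and at 0.735% and 1.17%. The 2 marks of the poised state met at a minority: 40 of the 284 members with H3K4me1 in positive tumors also had H3K27me3, 14.1% (10.5 to 18.6), and 56 of 269 in deleted tumors, 20.8% (16.4 to 26.1). Members without H3K4me1 had H3K27me3 at 18.5% (13.4 to 24.9) and 17.6% (12.8 to 23.6), so H3K27me3 was about as frequent with H3K4me1 as without it.

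The state was the same in both tumor types for 327 of 457 members, 71.6%. This count was not made over all peaks or the other sets, so it is not read as a trait of the members. Shares over all peaks are given by mark below. H3K4me1 alone stayed so at 167 members and no mark at 105. The largest groups that differed were 44 members with H3K4me1 alone in positive and no mark in deleted tumors, and 23 with the opposite order. In 11 members H3K4me1 alone in positive tumors was H3K4me1 with H3K27me3 in deleted tumors, and in 12 H3K4me3 without H3K27me3 was H3K4me1 alone.

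**Figure D5:**
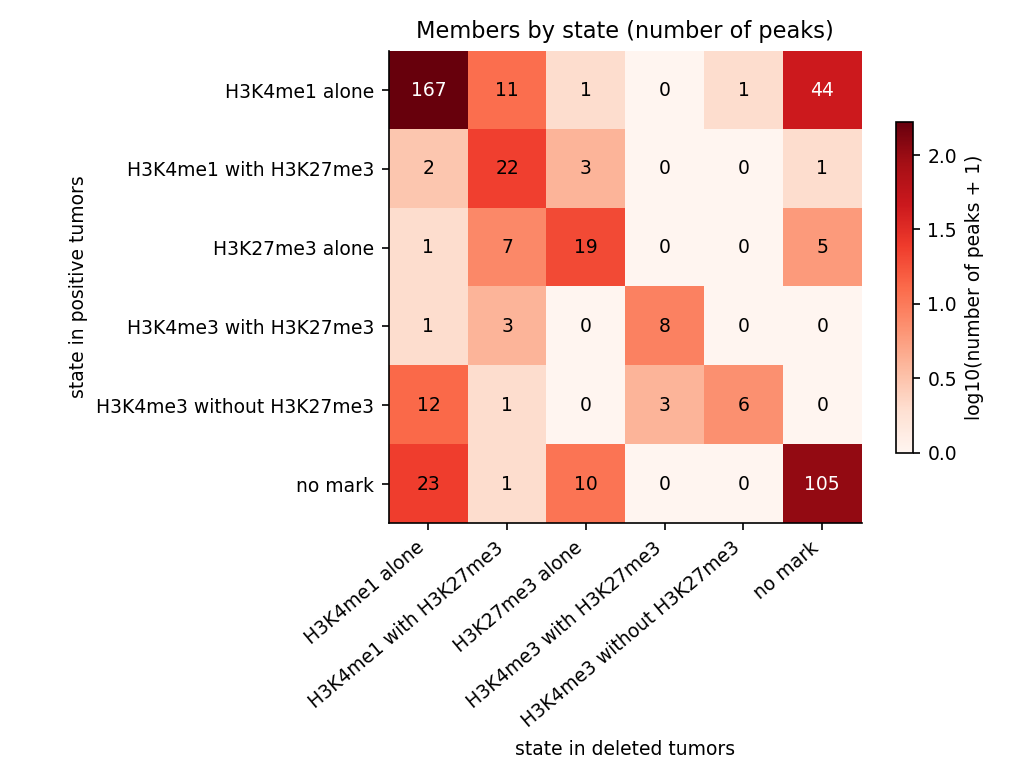
Number of members in each state in positive tumors (rows) and deleted tumors (columns), with colour on a log10 scale. The diagonal holds 327 of 457 members, led by 167 with H3K4me1 alone and 105 with no mark in both.

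By mark, H3K4me1 was present in both tumor types at 235 members (51.4%, against 91.8% of all peaks), in positive tumors only at 49 (10.7%, against 5.66%), in deleted tumors only at 34 (7.44%, against 0.517%) and in neither at 139. Of members with H3K4me1 in positive tumors, 82.7% (77.9 to 86.7) had it in deleted tumors too, against 52.6% (49.7 to 55.4) of lost peaks without H3K27ac, 99.9% of acetylated constant peaks and 94.2% of all peaks. H3K27me3 was in both at 62 members (13.6%, against 1.82% of all peaks), in positive tumors only at 10 (2.19%, against 0.279%) and in deleted tumors only at 27 (5.91%, against 1.4%). H3K4me3 was in both at 17 (3.72%, against 35.9%), in positive tumors only at 17 (3.72%, against 24.9%) and in deleted tumors only at 1 (0.219%, against 0.703%). The difference between the tumor types in member shares, deleted minus positive, was -3.28 points for H3K4me1, -3.50 for H3K4me3 and 3.72 for H3K27me3. The positive list covered more sequence for all 3 marks, and with the longer list reduced to equal covered length the first 2 differences turned to 1.09 and 1.97 points, while H3K27me3 gave 4.16. The direction for H3K4me1 and H3K4me3 is therefore not settled by these lists, and that for H3K27me3 was not tested. The H3K27me3 lists covered 453.6 and 448.3 Mb, so equal length could change little for that mark. Its share was also higher in deleted tumors over all peaks, 3.22% against 2.1%. The same order was seen at lost peaks without H3K27ac (17.3% against 13.5%) and acetylated constant peaks (1.46% against 0.899%).

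A set of 105 members, 23.0% (19.4 to 27.05), carried none of the 4 marks in either tumor type, against 1.37% of all positive-tumor Foxa1/2 peaks. Since the absence of H3K27ac was part of the rule, lost peaks without H3K27ac are the closer measure: 204 of 1466 of them, 13.9% (12.2 to 15.8), had no mark. Unmarked members scored 61 to 1073 with a median of 124, and members with a mark 61 to 3100 with a median of 161. Only 1 of the 105 overlapped Nkx2-1. They were not far from marked chromatin, with a median of 8687 bp to the nearest H3K4me1 island in positive and 9245 bp in deleted tumors. Their median distance to H3K27ac, 8487 bp, was near that of all members.

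Distance to H3K27ac varied widely. The nearest island of either tumor type lay 30 to 828927 bp from a member, with a median of 9875 bp and quartiles of 2956 and 24808 bp. For lost peaks without H3K27ac the median was 11252 bp. In all 48 members (10.5%) were under 1 kb from an island, 183 at 1 to 10 kb, 200 at 10 to 100 kb and 26 farther. H3K4me1 in positive tumors was found at 70.8% of the nearest group and 60.7%, 62.5% and 53.8% of the others. H3K27me3 in deleted tumors was found at 12.5%, 11.5%, 27% and 30.8%, so it was more frequent beyond 10 kb in these counts. At the edge of the rule, the 3 members nearest to H3K27ac were 30, 45 and 51 bp away, at chr8:123123231-123124132, chr2:35147260-35147955 and chr12:58382416-58383149, with scores of 142, 91 and 94. Just outside, 3 constant peaks had only 2, 6 and 27 bp under H3K27ac, at chr5:124766316-124767202, chr13:46933439-46934406 and chr4:139991774-139992531. Only 7 constant peaks had an overlap above 0 and under 100 bp.

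Single members show the range of states. Coordinates are of build mm9 and count from 1, and genes are not given, since an annotation of that build was not used here. The strongest member with H3K4me1 in both tumor types and no H3K27me3 lay at chr1:76938797-76940496 (1700 bp). It scored 3100 in positive and 1165 in deleted tumors, was 100% under H3K4me1 in both and 17396 bp from the nearest H3K27ac, and held an Nkx2-1 peak of score 918 with its summit 20 bp from that of Foxa1/2. It was followed by chr8:37526924-37528357 (score 2409, no Nkx2-1, H3K4me1 over 75.1% in both) and chr10:119158434-119159911 (score 2149, Nkx2-1 of score 62). The first of these lay 923 bp and the second 49433 bp from H3K27ac. Within the deleted list their partners scored 388 and 127, against a median of 128 for all partners of members.

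The members with the highest score that overlapped Nkx2-1 were the peak on chromosome 1 above, chr8:64275058-64277229 and chr14:24778004-24779248. The peak on chromosome 8 was also the widest member, 2172 bp, and scored 3100 in positive and 219 in deleted tumors. Its Nkx2-1 peak, the strongest at any member with a score of 1557, had its summit 888 bp from that of Foxa1/2. H3K4me1 covered 100% of it in both tumor types, and H3K27me3 covered 0% in positive and 26.3% in deleted tumors. The chromosome 14 peak scored 2423 and 134, and H3K27me3 covered 0% of it in positive and 100% in deleted tumors while H3K4me1 covered 96.1% and 80.1%. At both places H3K27me3 was thus called in deleted tumors only, beside H3K4me1.

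H3K4me1 was called in positive tumors only at chr10:92696409-92697870 (score 1239, Nkx2-1 present), at chr5:90733113-90734383 (539), and at chr1:196144282-196145328 (536). The island covered 100%, 100% and 88.6% of these peaks. It was called in deleted tumors only at chr2:181302597-181303617 (score 652, partner 958), at chr14:34967598-34968518 (236), and at chr4:132379250-132380422 (235). None of these last 3 held Nkx2-1, and the island covered 40.8%, 100% and 51.2% of them. The one on chromosome 14 also had H3K27me3 over 34.5% in both tumor types.

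Under H3K27me3 in both tumor types, the strongest members lay at chr8:36960670-36962069 (score 1571), chr2:11209594-11210823 (1250) and chr3:83580190-83581473 (1171). The first was entirely under H3K4me1 and only touched by H3K27me3, which covered 23.6% and 9.36% of it. The second had no H3K4me1, and its H3K27me3 cover was 16.8% in positive and 100% in deleted tumors. It scored 1145 in the deleted list, in the upper part of member partners. The peak on chromosome 3 was under H3K27me3 over 100% in both tumor types with H3K4me1 over 77.9% and 78.7%.

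H3K4me3 in both tumor types was led by chr13:90068774-90070044 (score 983), chr6:15206950-15208219 (786) and chr5:114759426-114760352 (352). H3K4me3 covered 62.9% of the first and 78.7% of the second in both tumor types, and 62.0% and 40.5% of the third. All 3 had H3K4me1 and lay 14173 bp or more from H3K27ac, and the third was 100% under H3K27me3 in deleted and 0% in positive tumors. Over all members, H3K4me3 came with H3K4me1 in 32 of 34 cases in positive and 18 of 18 in deleted tumors, and with H3K27me3 in 12 of 34 and 11 of 18. H3K4me1 was at 97.4% and 92.3% of all peaks, and at 62.1% and 58.9% of members. H3K4me3 came with H3K27me3 in 36 of 117 and 20 of 43 cases at lost peaks without H3K27ac. At acetylated constant peaks it did so in 63 of 6254 and 100 of 4686 cases.

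The strongest members without any mark lay at chr14:17051177-17052225, chr6:29190420-29191508 and chr2:135792476-135793762. They scored 1073, 700 and 667 in positive tumors, and their partners 994, 550 and 561 in deleted tumors, with summits 8, 8 and 22 bp apart. H3K27ac lay 22375, 1092 and 9875 bp away. High Foxa1/2 scores in both tumor types were therefore found at places with no called mark.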

How the data were processed

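Values are peak and island lists deposited by the authors. Bowtie, MACS 1.4.2 and SICER 1.1 are named in the submitters' processing notes without a role, as is build mm9. Per the file names, the peak p was 1e-06 and the island FDR 0.01. Windows were 200 bp wide, and gaps of up to 600 bp were bridged for H3K4me1 and H3K27me3 but 200 bp for the other marks. Each peak has a score from the authors' caller, and each island a deposited read count, not scaled for depth, used here only as reads per kb within a list. Samples were grouped by title, and the 9 inputs were not used.

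Overlap meant at least 1 bp. Medians, shares and Wilson intervals were computed with Python 3.11.15, numpy 2.4.6, pandas 2.3.3 and scipy 1.17.1, and figures drawn with matplotlib 3.10.9. Overlap and distance functions were tested on simulated data. Named regions are the 3 highest-scoring members of each class, the 3 nearest to H3K27ac, the 3 constant peaks with least H3K27ac overlap and the widest member. Members, classes and alternatives were chosen with earlier results of these data known. The alternatives were a 50% overlap, a 1000 bp margin to H3K27ac, cover of the summit, the upper 50% of lists, equal covered length, counting in the deleted list and adding chromosome X. The check of H3K27me3 beside the summit was added after seeing the data. No sequence is printed, as a genome of build mm9 was not used here.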

Additional observations from a re-analysis of the deposited data

How the results depend on the processing

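Of 65 values under 8 alternatives, 49 stayed within the main 95% interval (or, for the number of members, within 1.5 times 457). An overlap of 50% of the shorter interval was asked of membership as well as of the marks, which gave 553 members. Peaks with a smaller H3K27ac overlap count as members there. Of these 553, H3K27me3 was at 10.5% in positive and 13.6% in deleted tumors and Nkx2-1 at 10.3%. With cover of the summit, H3K27me3 was at 10.7% and 14.7%. With the upper 50% of each described list, H3K4me1 was at 32.2% and 25.8%, H3K4me3 at 3.28% and 0.875% and Nkx2-1 at 1.75%, which follows in part from shorter lists. With equal covered length, H3K4me3 in positive tumors was at 1.97%. Counted in the deleted list, the median score was 128, on that list's scale. With the upper 50% of both Foxa1/2 lists, 105 members were left, with a median score of 443, Nkx2-1 at 9.52% and H3K27me3 at 24.8% in deleted tumors. Without H3K27ac within 1000 bp (409 members) and with chromosome X (468), no value left its interval. No paired analysis was possible because the 2 files of each group are identical, and for the same reason no replicate could be left out. Total depth is unknown, so an island missing from a list may be weak rather than absent.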

Other observations

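Constant Foxa1/2 peaks with H3K27ac in 1 tumor type only differed from each other in Nkx2-1. Of the 288 with H3K27ac in positive tumors only, 102 overlapped Nkx2-1, 35.4% (30.1 to 41.1), with a median Foxa1/2 score of 380.5. Of the 205 with H3K27ac in deleted tumors only, 12 did, 5.85% (3.38 to 9.95), with a median score of 126, values near those of the peaks with H3K27ac in neither. H3K4me1 was at 97.9% and 90.3% of the first set in positive and deleted tumors, and at 81.95% and 96.1% of the second. The Nkx2-1 shares were not compared at like Foxa1/2 score, and at acetylated constant peaks that share rose with score. These differences have no replicate check.

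Chromosome X was left out of the rule. It held 141 constant peaks of 414 positive-tumor Foxa1/2 peaks, and 11 of the 141 had no H3K27ac in either tumor type. Their scores ran from 61 to 544. H3K4me1 overlapped 5 of them in each tumor type, H3K27me3 overlapped 2 in positive and 1 in deleted tumors, and Nkx2-1 overlapped 1.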
